A study of Mus musculus with 9 samples.

Results

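The genes studied are those of the TNF superfamily, the secreted and membrane-bound ligands related to tumour necrosis factor, and of their receptors, followed in mouse bone marrow cells given interleukin 5 (IL-5). The members are all genes of the array annotation named Tnfsf or Tnfrsf with a number, together with Tnf, Lta, Ltb, Ltbr, Fas, Fasl, Cd27 and Cd70. The annotation holds 39 of them. Of these, 37 (14 ligands and 23 receptors) were measured on a probe set naming no other gene, among 19938 such genes in all, and each had 1 such probe set. The other two, Tnfsf12 and Tnfsf13, lie on a shared probe set and are described apart. Fas and Tnfsf10, the markers given for the family, are both among the 37.

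Low-density bone marrow cells, a density-separated part of the marrow rich in progenitors, came from pooled marrow of Balb/c mice. All groups were first grown for 4 days with the progenitor growth factors SCF and FLT3L at 100 ng/mL. The cells before IL-5 (the prestimulation control), cells after 4 days of IL-5 and cells after 10 days of IL-5 were profiled on Affymetrix mouse gene arrays, 3 arrays in each group and 9 in all. IL-5 is known to push progenitors towards eosinophils, and the comparisons ask which genes of the family differ as these cultures proceed. The labels do not tie the arrays of a group to separate cultures or mice, and the p-values therefore reflect the spread of these arrays, which could be technical alone. Cultures of the same age without IL-5 are not analysed here, and the effects of IL-5 and of days in culture cannot be told apart. Both IL-5 groups were compared with the same 3 arrays from before IL-5.

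Ligands of the family are made as membrane proteins that act as trimers, and several are cut off the cell by proteases such as TACE (Adam17). Their receptors have cysteine-rich outer domains. Receptors with an intracellular death domain, such as Fas and Tnfr1 (Tnfrsf1a), can start caspase-driven cell death, while others recruit TRAF adaptors and turn on the canonical or the alternative NF-kB pathway. Decoy receptors bind ligand without passing on the signal. In the immune system the family is known for inflammation, for the survival of B cells, for the costimulation of T cells and for the formation of bone-resorbing cells.

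Values are deposited log2 signals, so a difference of 1 is a 2-fold change, and the signals of different genes are not set against each other. A gene is said to rise or fall where its change was at least 2-fold with an adjusted p under 0.05 (limma, Benjamini-Hochberg over 19938 genes). A gene is called dim in a group where its mean is below 4.66, the lower quartile over all gene means. Arrays of a group correlated across genes at 0.991 to 0.996. Measured as the log2 of their summed signal, 8 eosinophil markers went from 11.3 to 11.6 before IL-5 to 14.7 to 14.8 at day 4 and 15.8 at day 10 in every array, and none was dim. Day 10 replicate 3 stood apart in other markers: its stromal and endothelial sum was 11.32 against 10.61 and 10.55, and its macrophage sum 13.49 against 13.11 and 12.95. In these bulk cultures, fewer cells of a type and less RNA per cell cannot be told apart.

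At day 4 the receptors Tnfrsf11a (RANK), Tnfrsf9 (CD137) and Tnfrsf1b (the second TNF receptor) rose, Cd27 fell, and none of the 14 ligands rose or fell, with 7 higher and 0 lower at an unadjusted p under 0.05 (limma). The share of all genes passing the unadjusted p was not counted, here or below. Of all genes, 3.42% were called higher and 2.11% lower, against 3 higher and 1 lower of the 37. By adjusted p alone, which 31.5% of all genes passed, 10 members stood higher (7 receptors and the ligands Tnfsf8, Tnfsf13b and Ltb) and 3 lower. The median change was 0.23 over the ligands and 0.18 over the receptors, and a difference between the classes was not tested. The median change over the 37 was 0.18 on the log2 scale, against -0.11 over all genes.

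At day 10 other members led. Against the cells before IL-5, the ligand Tnfsf14 (LIGHT) and the receptors Fas and Tnfrsf18 (GITR) rose, and the receptors Cd27, Tnfrsf13c (BAFF receptor) and Tnfrsf1a fell. These are 3 higher and 3 lower of 37, beside 4.83% of all genes called higher and 9.40% lower. By adjusted p alone, which 42.3% of all genes passed, 8 members stood higher and 8 lower. The median change was 0.07, against -0.07 over all genes. The split depended on scaling: with the arrays quantile normalized, or with array medians subtracted, it was 4 higher and 1 lower, because Tnfrsf13c and Tnfrsf1a no longer reached 2-fold and Ltb did. Over all called genes the share called lower went from 66.0% to 54.5% and 55.2% under the same settings.

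From day 4 to day 10, Tnfsf14 rose and 5 members fell, namely Tnfrsf9, Tnfrsf11a, Tnfsf13b (BAFF), Tnfrsf1a and Tnfsf10 (TRAIL). Of all genes, 2.44% were called higher and 3.98% lower. By adjusted p alone, which 31.9% of all genes passed, 6 members stood higher and 12 lower, and the median change was -0.08 against 0.02 over all genes. Across the 3 comparisons 11 members were called at least once, 3 ligands and 8 receptors, and 26 were called in none. The share of all genes called at least once was not counted, and the shares above are each for 1 comparison and direction.

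**Figure D1:**
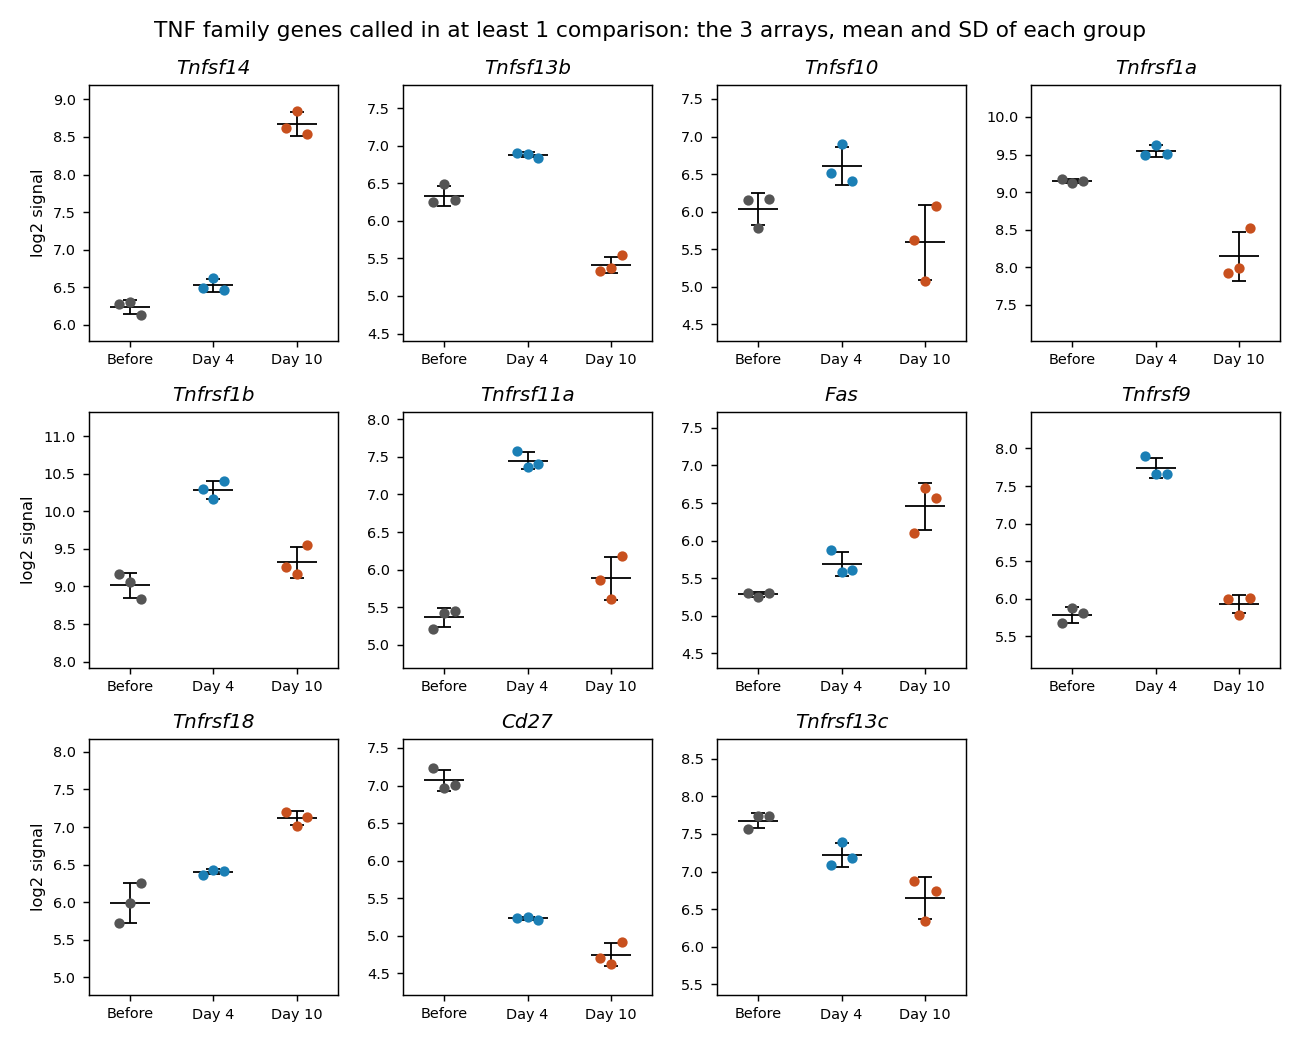
Log2 signal (vertical axis) of the 11 members called in at least 1 comparison, by group: points are the 3 arrays, the long bar is their mean and the whiskers their SD. Tnfrsf11a, Tnfrsf9 and Tnfrsf1b peak at day 4, Tnfsf14, Fas and Tnfrsf18 are highest at day 10, and Cd27 and Tnfrsf13c are highest before IL-5.

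Among the ligands, Tnfsf14 showed the largest rise. It encodes LIGHT, a ligand of the lymphotoxin beta receptor and of the receptor HVEM. Its log2 signal was 6.28, 6.30 and 6.13 before IL-5, 6.49, 6.63 and 6.47 at day 4, and 8.62, 8.85 and 8.54 at day 10. The 3 day 10 arrays lay far above all earlier ones, while the day 4 arrays lay just above those before IL-5. The change at day 10 was 2.43 (SE 0.109, 95% confidence interval 2.20 to 2.67, adjusted p = 2.02e-09), or 5.40-fold. Nearly all of it came after day 4, with a change of 2.14 from day 4 to day 10 (adjusted p = 1.66e-08). At day 4 the change was 0.29 (adjusted p = 0.0599).

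Tnfsf13b, which encodes BAFF, a survival factor of B cells, was highest at day 4 and fell from there. Its signals were 6.24, 6.49 and 6.27 before IL-5, 6.91, 6.89 and 6.84 at day 4, and 5.33, 5.37 and 5.54 at day 10. No group overlapped another, with day 4 highest and day 10 lowest. From day 4 to day 10 it fell by 1.47 on the log2 scale (SE 0.104, adjusted p = 2.91e-07). Against the cells before IL-5 the changes passed the adjusted p but not 2-fold, at 0.55 for day 4 (adjusted p = 0.00126) and -0.92 for day 10 (adjusted p = 7.18e-06).

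Tnfsf10 encodes TRAIL, a ligand that can trigger cell death through death domain receptors. Its signals were 6.15, 5.79 and 6.16 before IL-5, 6.52, 6.90 and 6.41 at day 4, and 5.62, 5.08 and 6.07 at day 10. The day 10 arrays were the most scattered and overlapped those from before IL-5, but not those of day 4. The fall from day 4 to day 10 was 1.02 (log2 change -1.02, SE 0.214, adjusted p = 0.00244), close to the 2-fold limit. It was -0.88 without day 4 replicate 2, -0.76 without day 10 replicate 2, -0.93 with quantile normalization and -0.91 with array medians subtracted, and so not called there. The changes against the cells before IL-5 were 0.57 at day 4 (adjusted p = 0.0587) and -0.44 at day 10 (adjusted p = 0.119).

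The linked genes Tnf, Lta and Ltb encode TNF and the lymphotoxins, and none was called. Ltb, the membrane partner of lymphotoxin alpha, came nearest, with signals of 7.84, 7.87 and 7.94 before IL-5, 8.17, 8.38 and 8.31 at day 4, and 8.77, 8.95 and 8.79 at day 10. Its groups did not overlap and went up in steps. The day 10 change of 0.95 (adjusted p = 3.52e-06) became 1.12 with quantile normalization and 1.09 with array medians subtracted, where it was called. Tnf gave 7.39, 7.61 and 7.22 before IL-5, 7.66, 7.73 and 7.71 at day 4, and 7.89, 8.21 and 8.22 at day 10. These groups did not overlap either, and the day 10 change was 0.70 (adjusted p = 0.00037). For Lta the day 10 change was 0.37 (adjusted p = 0.0662). Its arrays before IL-5 overlapped those of both days, while day 10 lay above day 4 without overlap.

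Tnfsf8, the ligand of the lymphocyte receptor CD30, was likewise highest at day 4 and was not called. Its signals were 5.86, 5.91 and 5.88 before IL-5, 6.71, 6.51 and 6.79 at day 4, and 5.59, 5.39 and 6.16 at day 10. Day 4 was highest, and day 10 overlapped the start through its replicate 3. The changes were 0.79 at day 4 (adjusted p = 0.00228) and -0.96 from day 4 to day 10 (adjusted p = 0.000547), and the latter was called at -1.03 without day 4 replicate 2 and at -1.18 without day 10 replicate 3. Tnfsf9, the ligand of CD137, changed by -0.59 at day 10 (adjusted p = 0.00127), short of 2-fold. It was dim at day 10, with a mean of 4.58, where changes are compressed. The other ligands did not pass the adjusted p in any comparison: Tnfsf11 (RANK ligand), Tnfsf15, Tnfsf4 (OX40 ligand), Tnfsf18 (GITR ligand), Fasl and Cd70. Of these, Cd70, Fasl, Tnfsf18 and Tnfsf4 were dim in every group, where changes are compressed. Across the 11 ligands that were never called, changes ran from -0.96 to 0.95.

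Among the receptors, Tnfrsf11a showed the largest rise at day 4. It encodes RANK, the receptor through which RANK ligand drives the formation of osteoclasts, the bone-resorbing cells. Its signals were 5.22, 5.43 and 5.45 before IL-5, 7.58, 7.36 and 7.41 at day 4, and 5.86, 5.61 and 6.18 at day 10. All 3 day 4 arrays stood well above the rest, and the day 10 arrays stayed just above the start. It rose by 2.08 at day 4 (SE 0.139, adjusted p = 2.73e-07), or 4.24-fold, and fell by 1.57 from there to day 10 (adjusted p = 2.26e-06). At day 10 the remaining difference from the start was 0.52 (adjusted p = 0.00826), which is under 2-fold. Tnfsf11, its ligand, changed by -0.16 and 0.01 at the 2 days. Tnfrsf11b, the soluble decoy osteoprotegerin, changed by 0.22 and 0.24 and was dim in every group.

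Tnfrsf9 encodes CD137, a costimulatory receptor of activated T cells that other leukocytes can also carry. Its signals were 5.67, 5.88 and 5.82 before IL-5, 7.90, 7.66 and 7.66 at day 4, and 6.00, 5.79 and 6.01 at day 10. The day 4 arrays stood alone, and day 10 overlapped the start. It rose by 1.95 at day 4 (SE 0.110, adjusted p = 7.06e-08), or 3.87-fold, and fell by 1.81 from day 4 to day 10 (adjusted p = 7.93e-08). The difference between day 10 and the start was 0.14, with a 95% confidence interval of -0.10 to 0.38.

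The receptors of TNF itself changed in the same direction at day 4 and from day 4 to day 10. The calls were not shared: Tnfrsf1b alone was called at day 4 and Tnfrsf1a alone from day 4 to day 10. Tnfrsf1a changed by 0.40 at day 4 (adjusted p = 0.0471), under 2-fold. At day 10 against the start Tnfrsf1b changed by 0.31 and did not pass (adjusted p = 0.0744), while Tnfrsf1a was lower. Tnfrsf1b, the TNF receptor without a death domain, gave 9.16, 9.06 and 8.83 before IL-5, 10.30, 10.16 and 10.40 at day 4, and 9.25, 9.16 and 9.56 at day 10. Day 4 was highest without overlap, and it rose there by 1.27 (SE 0.128, adjusted p = 8.47e-06), or 2.41-fold. Its change from day 4 to day 10 was -0.96 (adjusted p = 7.56e-05), just under 2-fold, and was called at -1.02 without day 4 replicate 2 and at -1.08 without day 10 replicate 3. Tnfrsf1a, the death domain receptor of TNF, gave 9.17, 9.12 and 9.15 before IL-5, 9.50, 9.63 and 9.51 at day 4, and 7.93, 7.99 and 8.52 at day 10. Its day 10 arrays lay below all others, with replicate 3 the least low. It fell by 1.40 from day 4 to day 10 (SE 0.140, adjusted p = 6.41e-06). Against the start its log2 change was -1.004 (adjusted p = 4.97e-05), which sits on the 2-fold limit. It was -0.86 with quantile normalization, -0.87 with array medians subtracted, -0.99 without replicate 1 before IL-5, and -0.89 and -0.93 without day 10 replicates 1 and 2.

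The promoters of 2 receptors that rose at day 4 and 2 that rose at day 10 are shown because each holds a match to the STAT gamma-activated site, the letters TTCNNNGAA. Of the called members, Tnfrsf1a also holds a match and is not shown. It fell at day 10 against the start and from day 4 to day 10. Whether the site bears on any change was not tested. STAT factors are turned on by cytokine receptors such as that of IL-5. Each sequence is the 250 bases before a RefSeq gene start on GRCm38.p6, in the direction of the gene, and capitals mark every match to the 4 motifs searched on both strands: that site, the interferon response core GAAANNGAA, the GATA site AGATAA and the NF-kB consensus. They are Tnfrsf9 at the downstream of its 2 starts (chr4:150927749-150927998, plus strand), Tnfrsf1b (chr4:145246871-145247120, minus strand), Tnfrsf18 (chr4:156026072-156026321, plus strand) and Fas (chr19:34290409-34290658, plus strand).
Tnfrsf9: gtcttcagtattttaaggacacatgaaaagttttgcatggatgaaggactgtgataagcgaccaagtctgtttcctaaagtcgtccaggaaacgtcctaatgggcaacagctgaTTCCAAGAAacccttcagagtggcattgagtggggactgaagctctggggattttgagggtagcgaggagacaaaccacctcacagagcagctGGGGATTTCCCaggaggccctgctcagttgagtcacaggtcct
Tnfrsf1b: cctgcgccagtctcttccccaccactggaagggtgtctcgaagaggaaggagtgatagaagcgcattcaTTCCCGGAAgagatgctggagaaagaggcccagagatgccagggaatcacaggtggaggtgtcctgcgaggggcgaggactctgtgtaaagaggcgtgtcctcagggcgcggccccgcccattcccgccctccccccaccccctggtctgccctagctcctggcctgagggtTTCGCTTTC
Tnfrsf18: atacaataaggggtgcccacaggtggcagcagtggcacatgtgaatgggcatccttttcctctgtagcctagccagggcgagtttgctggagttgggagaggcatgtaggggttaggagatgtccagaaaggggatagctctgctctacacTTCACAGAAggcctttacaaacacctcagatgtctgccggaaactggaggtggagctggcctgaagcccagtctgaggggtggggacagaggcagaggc
Fas: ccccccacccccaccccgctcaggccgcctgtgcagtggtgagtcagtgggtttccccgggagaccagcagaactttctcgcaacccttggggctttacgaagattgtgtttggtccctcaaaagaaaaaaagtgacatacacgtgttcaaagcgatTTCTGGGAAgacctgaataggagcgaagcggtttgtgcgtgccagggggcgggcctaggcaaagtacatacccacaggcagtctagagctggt

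In Tnfrsf9 the first run of capitals is the STAT match and the second holds 2 overlapping matches to the NF-kB consensus. The window at its upstream start held no match. In Tnfrsf1b the STAT match is followed by an interferon core match that ends at the base before the start. Each of Tnfrsf18 and Fas held a STAT match and no other. RefSeq promoters were found for 30 of the 37 members measured alone, 34 windows in all. Tnfsf12 and Tnfsf13 were not searched. The STAT site was in 8 of the 34, against 7.02% of 32851 promoters of the same length, and its other holders were Tnfrsf1a, Tnfrsf25, Ltb and Lta. The NF-kB consensus was in 4 (7.25% of all promoters), the interferon core in 6 (7.13%) and GATA in 1, Tnfsf13b (9.99%). Tnfsf14, Tnfrsf11a and Cd27, which changed most, held none of the motifs in their windows. A match is a stretch of letters and was not measured as a binding site.

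Of the death receptors, Fas was the one that rose. It encodes CD95, which assembles a caspase-activating complex when bound by Fas ligand. Its signals were 5.30, 5.25 and 5.31 before IL-5, 5.88, 5.58 and 5.61 at day 4, and 6.10, 6.70 and 6.56 at day 10. The groups went up in steps without overlap. The change was 0.41 at day 4 (adjusted p = 0.0493, under 2-fold) and 1.17 at day 10 (SE 0.145, adjusted p = 1.68e-05), or 2.25-fold. Fasl, its ligand, was dim in every group and changed by -0.18 and 0.02. Tnfrsf10b, the mouse TRAIL receptor, changed by -0.17 at day 4 and -0.40 at day 10, where it was dim, and did not pass at either. The decoy TRAIL receptors are clustered with Tnfrsf26, and of these Tnfrsf22 changed by 0.18 and 0.08, while Tnfrsf23 reached 0.52 at day 10 (adjusted p = 0.00385) and Tnfrsf26 reached 0.59 (adjusted p = 0.000771), both under 2-fold. For Tnfrsf21 (death receptor 6) the changes were 0.32 and 0.28, and for Tnfrsf25 (death receptor 3) -0.20 and -0.09, with no adjusted p under 0.05.

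Tnfrsf18 encodes GITR, a costimulatory receptor of T cells. Its signals were 5.72, 5.99 and 6.25 before IL-5, 6.37, 6.43 and 6.41 at day 4, and 7.20, 7.01 and 7.14 at day 10. The groups did not overlap, and those before IL-5 were the most scattered. It rose by 1.13 at day 10 (SE 0.126, adjusted p = 6.80e-06), or 2.19-fold, after a change of 0.42 at day 4 (adjusted p = 0.0232). Without replicate 1 before IL-5 the day 10 change fell just short of 2-fold and was not called. Its ligand Tnfsf18 was dim in every group and changed by 0.15 and 0.20. Tnfrsf4 (OX40), the gene next to Tnfrsf18, changed by 0.20 and -0.05 and did not pass.

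Cd27, a costimulatory receptor found on T cells, B cells and progenitors, showed the largest fall. Its signals were 7.23, 6.96 and 7.01 before IL-5, 5.23, 5.26 and 5.21 at day 4, and 4.70, 4.63 and 4.92 at day 10. All arrays with IL-5 lay well below the start, and day 10 lay below day 4. It fell by 1.83 at day 4 (SE 0.110, adjusted p = 1.15e-07) and by 2.32 at day 10 (adjusted p = 3.56e-09), or 4.98-fold. The further change from day 4 to day 10 was -0.48 (adjusted p = 0.00435), under 2-fold. Its ligand Cd70 was dim in every group and changed by -0.09 and 0.03.

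Tnfrsf13c encodes the BAFF receptor of B cells. Its signals were 7.56, 7.74 and 7.73 before IL-5, 7.09, 7.39 and 7.18 at day 4, and 6.87, 6.34 and 6.74 at day 10. The groups went down in steps without overlap. It fell at day 10 with a log2 change of -1.03 (SE 0.139, adjusted p = 3.79e-05), near the 2-fold limit, after -0.46 at day 4 (adjusted p = 0.0233). The day 10 change was -0.74 with quantile normalization, -0.89 with array medians subtracted and -0.87 without day 10 replicate 2, and was not called there, nor without replicate 2 or 3 before IL-5. The other receptors of the BAFF system, Tnfrsf13b (TACI) and Tnfrsf17 (BCMA), changed by -0.22 and 0.09 at day 10 and did not pass. The B cell markers fell with Cd27 and Tnfrsf13c: 8 of 10 at day 4 and 9 of 10 at day 10, with the log2 of their sum at 11.59 to 11.68 before IL-5, 9.83 to 9.97 at day 4 and 8.72 to 8.88 at day 10, and none dim. The T and NK cell sum was 10.55 to 10.71 before IL-5, 10.30 to 10.34 at day 4 and 9.71 to 9.81 at day 10, and its 13 markers were mixed: 3 fell at day 4, and at day 10 against the start 5 fell while Cd3g (3.21) and Cd3d (1.49) rose, with Cd3g dim before IL-5, Cd3g, Ncr1 and Gzma at day 4 and Gzma at day 10. The part of these markers in the falls was not tested.

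Among the other receptors, Ltbr, the lymphotoxin beta receptor, gave 7.18, 7.15 and 7.22 before IL-5, 7.16, 7.26 and 6.96 at day 4, and 6.34, 6.31 and 6.73 at day 10. Day 10 was lowest without overlap, at -0.72 against the start (adjusted p = 0.000344), under 2-fold. Tnfrsf14 (HVEM), the other receptor of LIGHT, changed by 0.40 at day 4 (adjusted p = 0.00639) and 0.22 at day 10. Tnfrsf19 (TROY) changed by -0.61 at day 4 (adjusted p = 0.00105), and Tnfrsf12a (the TWEAK receptor Fn14) by -0.40 at day 10 (adjusted p = 0.0153). Tnfrsf8 (CD30) changed by 0.04 and 0.22 and did not pass. Over the 15 receptors that were never called, changes ran from -0.72 to 0.67, and 16 members of both kinds passed the adjusted p in none of the 3 comparisons. The share of all genes that passed in none was not counted.

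**Figure D2:**
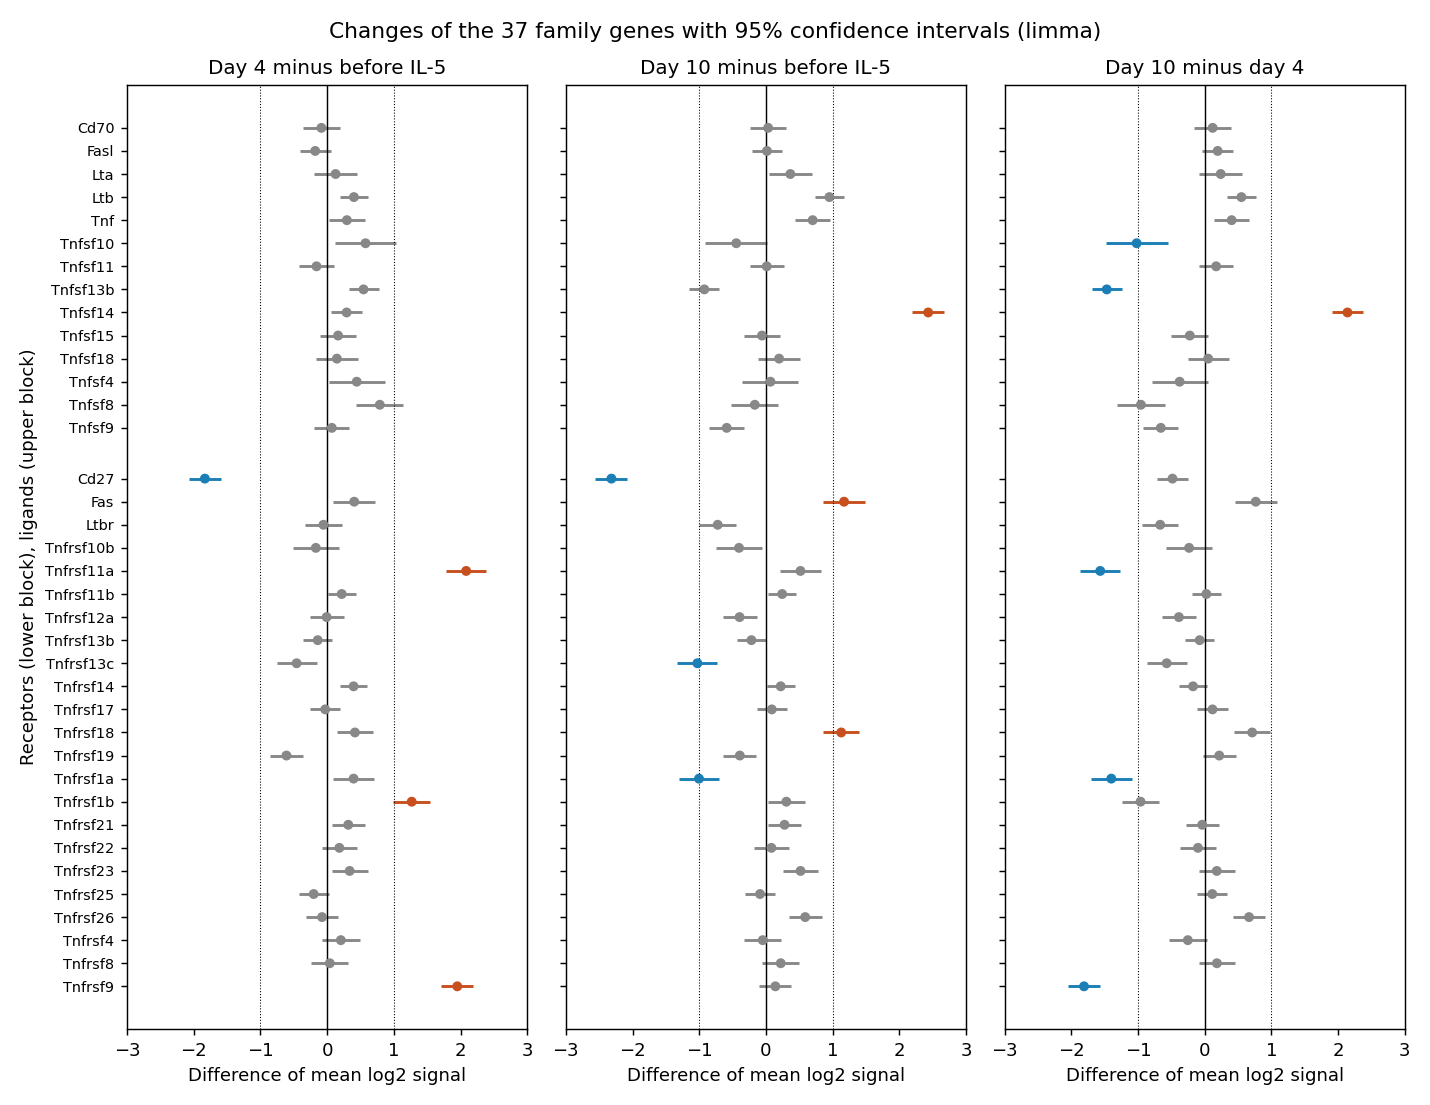
Difference of mean log2 signal (horizontal axis) of each of the 37 members in the 3 comparisons, with 95% confidence intervals from limma; ligands are the upper block, receptors the lower, red marks called higher, blue called lower, and dotted lines mark 2-fold. Red points at day 4 are receptors alone, while Tnfsf14 stands apart on the right in both day 10 panels.

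Ligands were also set beside the receptors that bind them. Of 27 listed pairs, 24 had both genes measured, and in 0 of the 24 were both genes called in the same comparison, a count to be read beside the small shares of all genes called (2.11% to 9.40% in a direction). At an unadjusted p under 0.05 (limma), both genes of a pair passed in 6 pairs at day 4, 9 at day 10 and 6 from day 4 to day 10, with the same direction in 5, 5 and 2 of them. Of all genes, 31.5%, 42.3% and 31.9% passed the stricter adjusted p in these comparisons. Some genes, such as Tnf and Tnfsf10, stand in several pairs, and the pairs are not independent. The BAFF pair went the same way at day 10 against the start, with Tnfsf13b at -0.92 and Tnfrsf13c at -1.03. It also did so from day 4 to day 10, at -1.47 and -0.57. At day 4 the pair went opposite ways, at 0.55 and -0.46, both passing the adjusted p but not 2-fold. Tnfsf14 rose while its receptors did not, with Ltbr at -0.72 and Tnfrsf14 at 0.22 at day 10. Tnfrsf9, Tnfrsf11a, Fas and Tnfrsf18 rose at 1 of the days while the ligand of each was within 0.20 of its start at that day. Of these ligands, Fasl and Tnfsf18 were dim in every group, where changes are compressed. Several members are neighbours in the gene order of GRCm38.p6, some with like changes and some without. At day 10 against the start, Cd27 (-2.32), Ltbr (-0.72) and Tnfrsf1a (-1.004), with 1 other protein-coding gene between each, were all lower, and Ltb (0.95), Tnf (0.70) and Lta (0.37) were all positive, Lta without passing the adjusted p. Tnfsf14 lies beside Cd70 and Tnfsf9, which changed by 0.03 and -0.59 at day 10. Tnfrsf1b lies beside Tnfrsf8, which changed by 0.04 at day 4.

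Tnfsf12 (TWEAK) and Tnfsf13 (APRIL), neighbours on the chromosome, share a probe set that names 3 genes, including their read-through gene Tnfsfm13. Its log2 signals were 6.30, 6.27 and 6.33 before IL-5, 6.87, 7.05 and 6.74 at day 4, and 6.47, 6.29 and 6.62 at day 10. Day 4 was highest, and day 10 overlapped the start. Which of the genes gave the signal cannot be told apart, and it was not tested.

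NF-kB factors act downstream of the receptors. Of 12 measured NF-kB subunits and inhibitors, 9 were not called at day 4 and none fell (0 lower at an unadjusted p under 0.05, limma). The 3 that rose were Relb, the partner of the alternative pathway, by 1.82, Nfkbiz by 1.38 and Rel by 1.30. At day 10 none of the 12 rose or fell against the start, with 2 higher and 4 lower at an unadjusted p under 0.05 (limma), and from day 4 to day 10 Relb (-2.09), Nfkbiz (-1.32), Rel (-1.18) and Nfkb2 (-1.11) fell, the last not called after quantile normalization. Relb signals were 7.38, 7.08 and 7.06 before IL-5, 9.02, 8.96 and 8.99 at day 4, and 6.78, 7.03 and 6.88 at day 10. The day 4 arrays stood alone, as for Tnfrsf9 and Tnfrsf11a. The median change of the list was 0.43 at day 4 and 0.06 at day 10, against -0.11 and -0.07 over all genes.

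Of 22 measured genes known to respond to TNF through NF-kB, 11 rose, 11 were not called and none fell at day 4 (1 lower at an unadjusted p under 0.05, limma), led by Il1b (3.52), Ccl22 (3.28), Cd83 (2.37), Ptgs2 (2.23), Ccl5 (1.93) and Cxcl10 (1.82), with a list median of 0.94. At day 10 against the start 2 rose, Csf1 (4.48), the macrophage growth factor, and Bcl2l1 (1.04), which encodes the survival protein Bcl-xL and lost its call when either the before IL-5 replicate 1 or the day 10 replicate 3 was left out. Against the start Sod2 (-1.11) and Ccl5 (-1.05) fell, neither of which was called after quantile normalization or median subtraction. From day 4 to day 10, 10 fell and 2 rose, namely Csf1 (3.12) and Bcl2l1 (1.05, not called without replicate 3 of either day). Those that fell were led by Ccl22 (-3.44), Ccl5 (-2.98), Cd83 (-2.80), Il1b (-2.78), Cxcl10 (-2.02) and Ptgs2 (-1.79), and the list median was -0.88. Ccl22 and Cd83 also stand on the list of dendritic cell markers.

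Of 27 measured receptor adaptors and regulators, 4 rose at day 4 and none fell (7 lower at an unadjusted p under 0.05, limma): Traf1 (2.65), an adaptor of the second TNF receptor and CD137, Tnip3 (1.96), Map3k14 (1.63), the NIK kinase of the alternative NF-kB pathway, and Birc3 (1.16), a ubiquitin ligase at TNF receptors. Traf1 signals were 5.01, 5.00 and 4.97 before IL-5, 7.56, 7.53 and 7.84 at day 4, and 4.78, 5.04 and 5.22 at day 10. They were high at day 4 alone, and day 10 overlapped the start. At day 10 Birc3 (1.29), Cyld (1.15) and Tnfaip3 (1.11), the deubiquitinases CYLD and A20 among them, rose against the start, and Tnip3 (-1.65), Ripk3 (-1.43) and Tnip2 (-1.01) fell. The split of 3 higher and 3 lower became 5 and 2 with quantile normalization and 4 and 2 with array medians subtracted. From day 4 to day 10 Tnip3 (-3.61), Traf1 (-2.63), Tnip2 (-1.14) and Map3k14 (-1.05) fell and none rose (6 higher at an unadjusted p under 0.05, limma), and with quantile normalization 2 genes of the list were called lower.

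Of 12 measured genes of death receptor execution, Bid (-1.001) fell at day 4 and Diablo (-1.48) and Faim (-1.08) at day 10, and none rose. At an unadjusted p under 0.05 (limma), 1 and 2 of the 12 were higher at the 2 days. The calls for Bid and Faim were lost under both rescalings. Of 8 genes that process or shed the ligands, Adam8, a leukocyte surface protease, rose by 2.92 at day 4 and 4.41 at day 10, and Furin (2.14) and Rhbdf2 (1.41), a carrier of TACE, rose at day 10. Timp3 (-1.10), an inhibitor of TACE, fell at day 10, but not with array medians subtracted. Adam17, the gene of TACE, changed by 0.89 and 0.17 at the 2 days and was not called. Of 7 family genes that the naming rule leaves out, Relt rose by 1.95 at day 10, and Cd40 fell by 1.31 from day 4 to day 10 after a change of 0.66 at day 4.

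**Figure D3:**
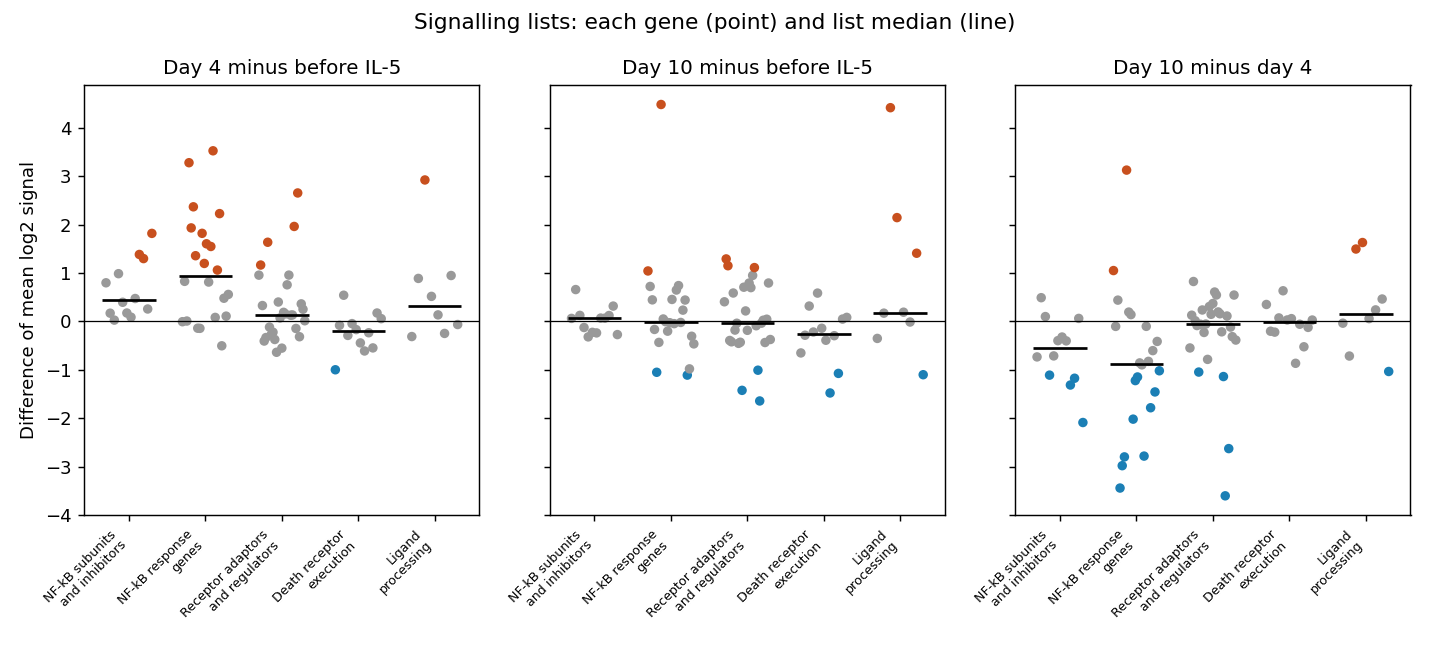
Difference of mean log2 signal (vertical axis) of each measured gene (point) of 5 signalling lists in the 3 comparisons, with the list median as a black line, red for called higher and blue for called lower. NF-kB subunits and NF-kB response genes lie mostly above 0 at day 4 and mostly below 0 from day 4 to day 10.

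Marker levels of other cell types also differed at day 4. The log2 sum of 11 dendritic cell markers was 10.96 to 11.03 before IL-5, 12.51 to 12.59 at day 4 and 9.59 to 9.65 at day 10, with 6 of 11 higher at day 4 and 9 of 11 lower from day 4 to day 10, and none dim. For 10 macrophage markers the sum was 11.12 to 11.21 before IL-5, 13.28 to 13.43 at day 4 and 12.95 to 13.49 at day 10, with 10 of 10 higher at day 4 and Mertk dim before IL-5. For 10 neutrophil markers it was 12.95 to 13.32, then 14.64 to 14.80, then 13.95 to 14.21, with 7 of 10 higher at day 4 and none dim. From day 4 to day 10 the neutrophil markers were mixed, with 5 called lower and 2 called higher. Tnfrsf11a, Tnfrsf9, Tnfrsf1b, Tnfsf13b and Relb were highest at day 4, as were the dendritic and neutrophil sums. The macrophage sum at day 4 overlapped that at day 10. At day 4, 11 of the 22 NF-kB response genes were called higher, beside 3.42% of all genes. Ccl22 and Cd83 stand on both the response list and the dendritic list. Mast cell and basophil markers gave 12.16 to 12.33 before IL-5, 12.14 to 12.18 at day 4 and 11.80 to 12.07 at day 10, with Tpsab1 dim in every group and Cma1 at day 10. The 11 markers behind this sum were mixed, with 1 called higher and 1 lower at day 4. At day 10 against the start 1 was called higher and 4 lower, with changes from -2.44 to 3.34. The erythroid sum went from 12.39 to 12.49 before IL-5 to 11.15 to 11.26 at day 4 and 10.35 to 10.56 at day 10, with 6 of 7 markers lower at day 4 and 7 of 7 at day 10, and Rhag dim at both days. The part of these markers in the changes of the family was not tested.

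Day 10 replicate 3 had the highest macrophage and stromal sums of its group. Of the called members, it was the highest of its group for Tnfrsf1a, Tnfrsf1b, Tnfrsf9, Tnfrsf11a, Tnfsf10, Tnfsf13b and Cd27. It was not the highest for Tnfsf14, Fas, Tnfrsf18 or Tnfrsf13c. Tnfsf8 and Ltbr were among the uncalled members highest in it. Without that array the family count from day 4 to day 10 was 1 higher and 7 lower, in place of 1 and 5. Over all genes the count moved too, to 499 higher and 968 lower, in place of 487 and 794.

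**Figure D4:**
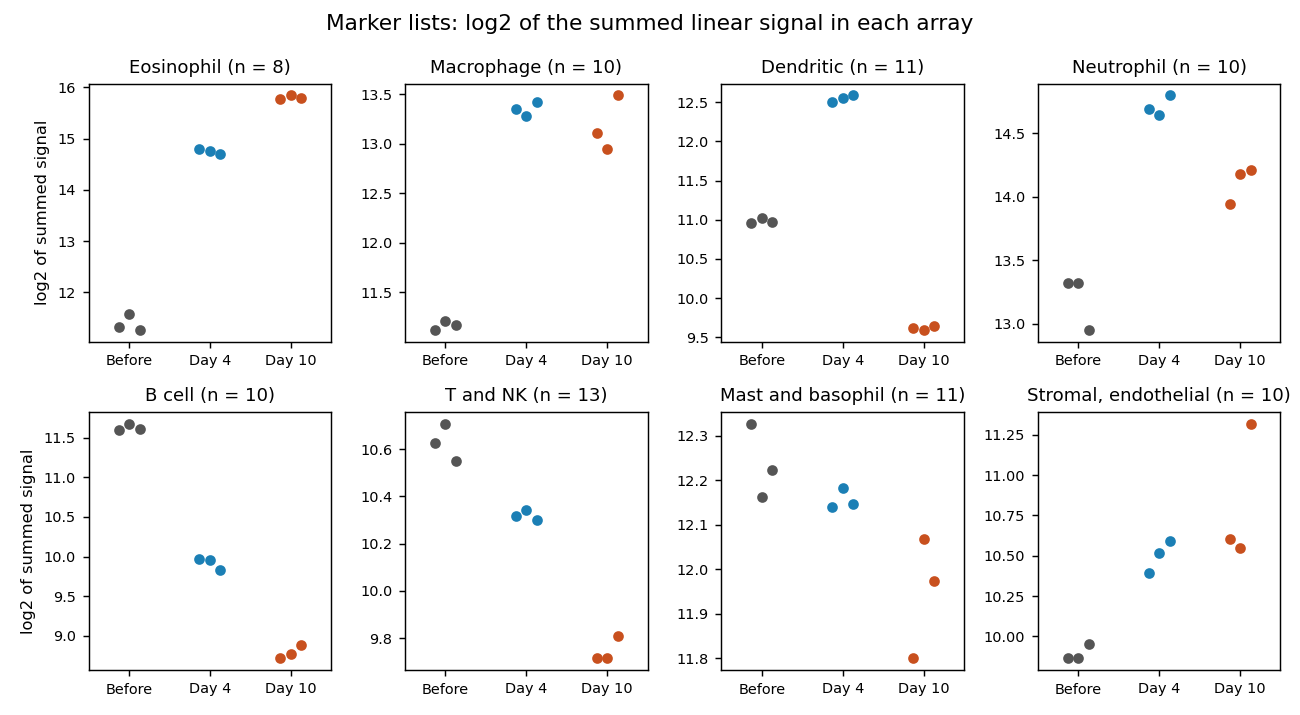
Log2 of the summed linear signal (vertical axis) of 8 marker lists in each array, by group, with the number of measured markers in each title. The eosinophil sum is highest at day 10, the dendritic and neutrophil sums at day 4 and the B cell and T and NK sums before IL-5.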

How the data were processed

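Log2 signals per probe set were deposited for 9 arrays, made with Affymetrix Expression Console 1.1.2637.26569 per the submitters' processing notes, and the sample descriptions name its default gene-level RMA summary, per the labels. Its other settings, and the genome build of the array, were not given in the sources used here. RMA gives arrays like distributions and compresses changes of dim genes. Array medians were 5.67 to 5.75, and values ran from 1.63 to 14.5. Precision is limited by the number of arrays.

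Of 35557 probe sets, 21789 carried 1 gene symbol and were used, 1621 carried several and 12147 had none in the probe table used. For 999 genes with several probe sets the one with the highest mean was kept, leaving 19938 genes. Symbols were checked through Entrez identifiers, which updated 0 and left 91 unmatched.

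The test was a linear model per gene with 3 group means over the 9 arrays (limma 3.58.1, R 4.3.3, functions lmFit and eBayes, 6 residual degrees of freedom, two-sided, Benjamini-Hochberg over all genes), a script tested on simulated data. Called members are named with their values, up to 12 a comparison array by array, then their ligand or receptor partners, and up to 6 called genes of each pathway list. Uncalled members named beyond that were chosen after their values were seen. Members and lists were chosen with earlier results of these data known. Replicate numbers here are those of the titles, and the descriptions number some samples otherwise. The main test did not pair samples by title number. Deviations of same-number arrays correlated at -0.119 to 0.0773, and those of different-number arrays at -0.163 to 0.184. With 3 arrays in a group this cannot exclude pairing, and the numbers of the descriptions were not checked. Alternatives were a replicate block, 2 rescalings, a filter on dim genes, another prior, averaged probe sets, adjusted p without the fold limit, and leaving out each array. No detection calls were used.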

Additional observations from a re-analysis of the deposited data

How the results depend on the processing

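Of 16 called changes of members, 12 were called in all alternatives tried and none turned its sign. Those lost in at least 1 were Tnfrsf13c, Tnfrsf1a and Tnfrsf18 at day 10 and Tnfsf10 from day 4 to day 10, all within a short distance of the 2-fold limit. By adjusted p alone the counts were 10 higher and 3 lower at day 4, 8 and 8 at day 10, and 6 and 12 from day 4 to day 10. The count of members lower at day 10 against the start was 3, and it was 1 with quantile normalization and 1 with array medians subtracted. Leaving out 1 array gave 1 to 3 for it, the lowest without day 10 replicate 2. With a replicate block the counts stayed at 3 higher and 1 lower, 3 and 3, and 1 and 5, and it changed no call. Subtracting array medians shifted the median of all genes by 0.13 at day 10 against the start and by 0.11 from day 4 to day 10. Depth is not defined for arrays. Changes of the 5 members dim in every group, Cd70, Fasl, Tnfsf4, Tnfsf18 and Tnfrsf11b, have little signal over background behind them.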
